A study of Homo sapiens with 15 samples.

Results

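The genes described here encode the subunits of the constitutive proteasome. They are the 41 of 23368 genes in the count table whose symbol is PSMA, PSMB, PSMC, PSMD or PSME followed by a number, with the immunosubunits PSMB8 and PSMB9 and pseudogene symbols left out. Of these, 17 belong to the 20S core, 20 to the 19S regulator and its assembly chaperones, and 4 to the proteasome activators. RNA was sequenced from 15 libraries of 3 single cell-derived breast cancer clones, each left without doxycycline or given 1, 2.5, 5 or 25 ng/ml, with 1 library per clone and dose and no replicates. WT6 and WT10 cells carried a doxycycline-inducible wild type RBM47, an RNA-binding protein. MUT3 cells carried an inducible RBM47-I281fs, a frameshift mutant whose predicted protein ends early and lacks the last of the RNA recognition motifs. In induced cells that were not clonal, the study detected no mutant protein by Western blot, and it describes this protein as unstable and inactive. All 3 clones, the untreated libraries included, carry the inducible construct, and each clone stands for 1 cell. The labels give MDA231 as the parental line of WT6, while the methods of the study derive it from CN34-BrM2 and only WT10 and MUT3 from the brain metastatic derivative of MDA231. Clone, parental line and transgene therefore cannot be told apart in comparisons with WT6, and WT10 and MUT3 are 1 clone each. All 15 libraries carried KRT8 and KRT18 mRNA, keratins of luminal epithelium, and VIM, a mesenchymal filament gene, at 8159 normalized counts or more. The mesenchymal gene FN1 held 8889 to 21189 in WT6, 862 to 3197 in WT10 and 1987 to 2088 in MUT3 cells. The hormone receptor genes ESR1 and PGR reached at most 11.97 and 23.8, while ERBB2, the HER2 gene, held 1018 to 1584. The other epithelial genes were lower than KRT8 and KRT18, with KRT19 at 1061 to 3994, EPCAM at 136 to 456 and CDH1, the epithelial cadherin, at most 19.9. Of the white blood cell genes CD3E held no read, PTPRC at most 6.18 and CD14 44.9 to 73.5 in WT6, 15.5 to 29.9 in WT10 and 26.3 to 39.95 in MUT3 cells. Of the fibroblast genes DCN stood at 190 to 735 in WT6 cells and at most 1.08 in the others, COL1A1 at 178 to 249.9 in WT6, 272 to 493 in WT10 and 198 to 282 in MUT3 cells, and COL1A2 at most 3.29. The part of these genes in the results was not tested. The word constitutive does not suit 3 members of the rule: PSMB10 is the inducible counterpart of PSMB7, PSMB11 is known from thymus epithelium and PSMA8 from testis. PSMA8 was at 0 in all 15 libraries, and PSMB11 did not exceed 1.11 normalized counts, below the 3 reads taken as the floor of detection.

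The proteasome degrades proteins that carry a ubiquitin chain. Its 20S core is a barrel of stacked rings, in which alpha subunits form the outer rings and gate the entry pore, and beta subunits form the inner rings with the cutting sites. The 19S regulator caps the barrel: the ATPases of its base unfold the substrate, the other base subunits hold ubiquitin receptors, and the lid removes the chain. Activators such as PSME1 with PSME2 can bind the core in place of the 19S regulator. Subunit genes are widely known to be expressed together, and NFE2L1, also called NRF1, raises their transcription through antioxidant response elements when proteasome activity is low.

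To show what the members share at their start sites, promoters of 300 bases, from 250 before to 50 after the gene start (RefSeq, GRCh38.p14), were searched on both strands for the core of the antioxidant response element, TGACNNNGC. A promoter was found for 36 of the 41 members, of which 12 (33.3%) held this core, against 16.1% of 27305 genes. The CCAAT box was present in 18 of 36 (50%) against 39.7% of genes, and the GC box GGGCGG in 23 (63.9%) against 48.3%. These are matches of letters, not binding sites. The 27305 genes were not limited to expressed or protein-coding genes, and base content was not matched. What part these have in the differences was not tested. Windows from 7 of these 12 members, with 10 bases on either side of the match, are printed in the direction of the gene to show the letters behind this count in all 3 complexes. Capitals mark the core or its reverse complement.
PSMA4, chr15:78540650-78540678: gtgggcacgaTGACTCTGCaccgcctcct
PSMB3, chr17:38752627-38752655: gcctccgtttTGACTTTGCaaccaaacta
PSMC4, chr19:39971182-39971210: acagaggccgGCTTGGTCActatggagga
PSMC5, chr17:63827654-63827682: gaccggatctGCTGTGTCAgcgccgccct
PSMD12, chr17:67366724-67366752: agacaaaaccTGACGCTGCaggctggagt
PSME1, chr14:24136098-24136126: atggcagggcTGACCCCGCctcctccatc
PSME2, chr14:24146767-24146795: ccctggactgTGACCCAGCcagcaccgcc
In PSMC4 and PSMC5 the match lies on the strand opposite to the gene. The median dose slopes of members with and without the core were 0.12 and 0.10 in WT6 cells and 0.03 and 0.06 in WT10 cells, on the log2 scale explained with the slopes, with 12 and 22 tested members respectively.

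The deposited values are normalized counts, that is, the reads of each gene over a size factor for its library. Libraries held 14955172 to 44771871 reads on genes, the median being 18152381. RBM47 itself, the induced gene, held 258, 3137, 8094, 3966 and 10425 normalized counts at 0, 1, 2.5, 5 and 25 ng/ml in WT6 cells. The WT6 library labelled 5 ng/ml thus held less RBM47 mRNA than the one labelled 2.5 ng/ml. In the same order the counts were 168, 827, 2822, 8134 and 19877 in WT10 cells and 73.8, 92.1, 336, 949 and 22084 in MUT3 cells, and increased with each dose in both. The WT6 libraries labelled 5 and 25 ng/ml stood apart from the other 10 treated libraries: relative to untreated cells, the shortest 20% of transcripts had a median log2 change of 0.61 and 0.59, and the longest 20% −0.41 and −0.44. In those 10 these medians lay between −0.07 and 0.07. Since the members' transcripts are short, with a median of 1567 nucleotides (range 762 to 7250) against 3280 for all annotated genes, the counts of WT6 calls are given with and without this trend. The median log2 change of the 39 detected members was 0.59 and 0.40 in these WT6 libraries, with 33 and 29 members higher than untreated. It was 0.25 in WT10 cells at 25 ng/ml (30 of 39 higher) and −0.04 in MUT3 cells at 25 ng/ml (11 of 39 higher).

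The mRNA of the 20S core was higher in the WT6 libraries labelled 5 and 25 ng/ml and in the WT10 library at 25 ng/ml than in all other libraries of those clones, and showed no such step in MUT3 cells. The normalized counts of its 17 genes summed to 62469, 62216, 62539, 101262 and 87483 at the 5 doses in WT6 cells. They came to 59996, 58686, 60796, 63266 and 73450.3 in WT10 cells and to 64039, 65315, 64076, 63076 and 61273 in MUT3 cells. Against the untreated library, the sum was 1.62 and 1.40 times as high in WT6 cells at 5 and 25 ng/ml, 1.22 times in WT10 cells at 25 ng/ml and 0.957 times in MUT3 cells at 25 ng/ml. The 2 lower doses of WT6, in which RBM47 already reached 3137 and 8094 normalized counts, had sums 0.996 and 1.00 times that of untreated cells.

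The 19S regulator showed a smaller step. The sum of its 20 genes was 84626, 84871, 84210.1, 102341 and 98292 in WT6 cells, 85039, 82157, 84091, 84897 and 91521 in WT10 cells and 85688, 86354, 85303, 85951 and 85339.6 in MUT3 cells. The highest values were again those of WT6 at 5 and 25 ng/ml (1.21 and 1.16 times untreated) and of WT10 at 25 ng/ml (1.08 times). The 4 activators summed to 15697, 15536, 15499.7, 17893 and 16882 in WT6 cells, 13858, 13873, 14063, 13985 and 13253 in WT10 cells and 14987, 15388, 15062, 15468 and 15556 in MUT3 cells, so that the WT10 library at 25 ng/ml was here the lowest of its clone. The ratio of 20S to 19S counts was 0.738 in untreated WT6 cells and 0.989 and 0.890 at 5 and 25 ng/ml. In WT10 cells it was 0.706 untreated and 0.803 at 25 ng/ml, and in MUT3 cells 0.747 and 0.718. PSMD2, which did not rise, held 26332 of the 85039 counts of the 19S sum in untreated WT10 cells. Without it the ratio was 0.939, 1.19 and 1.08 in WT6 cells at 0, 5 and 25 ng/ml. From untreated to 25 ng/ml it then went from 1.02 to 1.08 in WT10 cells and from 1.00 to 0.958 in MUT3 cells. With the length and GC trends of each library removed, the 20S sum of WT6 cells was 1.12 and 1.03 times untreated at 5 and 25 ng/ml. That of WT10 cells was 1.11 times untreated at 25 ng/ml and that of MUT3 cells 0.983 times. At 25 ng/ml the WT6 sum leaned on PSMA4, PSMA5 and PSMB2 (1.57, 1.58 and 1.37 times untreated), with canonical transcripts of 3815 to 4426 nucleotides. The other 20S members went both ways there, from 0.81 (PSMA6) to 1.13 times (PSMB3). The 19S sum of WT6 cells was then 1.01 and 0.948 times untreated at 5 and 25 ng/ml, without the step, and that of WT10 cells 1.02 times at 25 ng/ml. In bulk RNA, more transcripts in each cell and a change in the cells that make up a culture cannot be told apart, and 1 library per dose gives these sums no replicate check.

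Per length, subunits of the same complex differed widely in mRNA level although they enter the particle in fixed proportions. In RPKM (reads scaled by transcript length and library depth), the medians over the 15 libraries were highest for PSMA7 (489, range 454 to 735), PSMD2 (392, 263 to 486) and PSMB4 (366, 333 to 533), which encode an alpha subunit, a scaffold of the 19S base and a beta subunit without a cutting site. PSMA7 exceeded 99.2% of expressed genes. At the lower end stood PSME4 (18.0, 12.1 to 18.95) and PSMC1 (6.23, 4.64 to 7.06). The order depends on the transcript model: with the median instead of the canonical transcript length, PSMA4 moved from 34.5 to 160 RPKM, while PSMA7, PSMD2 and PSMB4 stayed the highest and PSMC1 the lowest of the 39 detected members. PSMC1 has 13 named pseudogenes, and reads that match several copies may have been left out of its count. Of the 41 members 16 have at least 1 named pseudogene and 23 overlap another annotated gene on either strand, so that some of their reads are uncertain. Neighbours in this order, such as PSMB6 (254, 142 to 336) and PSMB5 (245, 204 to 281), overlapped in their ranges.

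To ask which subunits changed with dose, a line was fitted for each clone. The slope is the change in log2(normalized count + 1) per unit of log2(dose + 1), a scale on which 25 ng/ml lies 4.70 units from untreated, and was tested with limma across 12644 genes with a mean of at least 10 in each clone. Benjamini-Hochberg adjusted p-values under 0.05 were called, and the error is the scatter around the 3 lines, shared by the clones. Of the 41 members 39 were tested, and PSMA8 and PSMB11 fell below the filter.

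In WT6 cells most subunit mRNAs rose with dose. Of 39 members 24 (61.5%) rose and 4 (10.3%) fell, where 29.2% of all genes tested rose and 28.3% fell. The rise covered 11 of 15 tested members of the 20S core with none falling, 11 of 20 in the 19S regulator with PSMD1, PSMD11 and PSMD12 falling, and PSME1 and PSME2 of the 4 activators with PSME4 falling. The median slope of the members was 0.11, against 0.01 for all genes. Slopes followed transcript length, with r = −0.69 over the 39 members and −0.46 over 12131 annotated genes, a description over genes that share their libraries. When the trends of each library with length and GC content were removed, 9 members rose and 11 fell, with 27.5% and 30.9% of genes as the background. Of the 24 members 8 still rose (PSMA4, PSMA5, PSMC1, PSMC2, PSMC4, PSMD7, PSMD9 and PSME2), while PSMA7 and PSMB5 went from rising to falling. The slopes of PSMA1, PSMB1, PSMC3, PSMC5, PSMD10 and PSMD13 also turned below 0, without a call. Without the WT6 libraries labelled 5 and 25 ng/ml, 0 members had a slope in WT6 cells by limma, and 0 an unadjusted p under 0.05. With the log2 RBM47 count in place of dose it was 0 as well, with 2 members at an unadjusted p under 0.05.

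In WT10 cells PSMC2, PSMC4, PSMD7 and PSMD13 rose and no member fell, that is 10.3% and 0% of 39 members against 10.2% and 9.83% of genes. The median slope was 0.06 (near 0 for all genes), and 31 of 39 members had a slope above 0, against 48.7% of genes. Of the 15 tested 20S members 14 had a positive slope, from 0.00 to 0.12, but none passed the test and 5 had an unadjusted p under 0.05. The spread that enters this test is shared with WT6. In a fit of the WT10 and MUT3 libraries alone, an alternative chosen after the data were seen, 21 members rose (12 of them in the 20S core) and PSMD2 and PSME3 fell, against 18.4% and 19.4% of 13130 genes. With the length and GC trends removed, 12 rose and 2 fell, against 14.7% and 21.8% of genes, and all 12 were among the 21. The 4 calls of the main test numbered 0 without the WT10 library at 25 ng/ml, 2 without WT10 at 1 ng/ml, 8 without WT6 at 25 ng/ml and 20 without the WT6 library labelled 5 ng/ml. For these fits with 1 library left out, the share of all genes called is not given here. The changed counts may therefore not be particular to the members.

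In MUT3 cells 0 of 39 members had a slope by limma, as was true of 0% of genes in either direction. No member reached an unadjusted p under 0.05, and edgeR and DESeq2 on the recovered reads called 0 members as well. The slopes ran from −0.05 to 0.02, with a median of −0.01, and their 95% intervals can be read from the plot of slopes by clone. For example, the interval of PSMB5 ran from −0.08 to 0.07 and that of PSMC2 from −0.08 to 0.05.

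**Figure D1:**
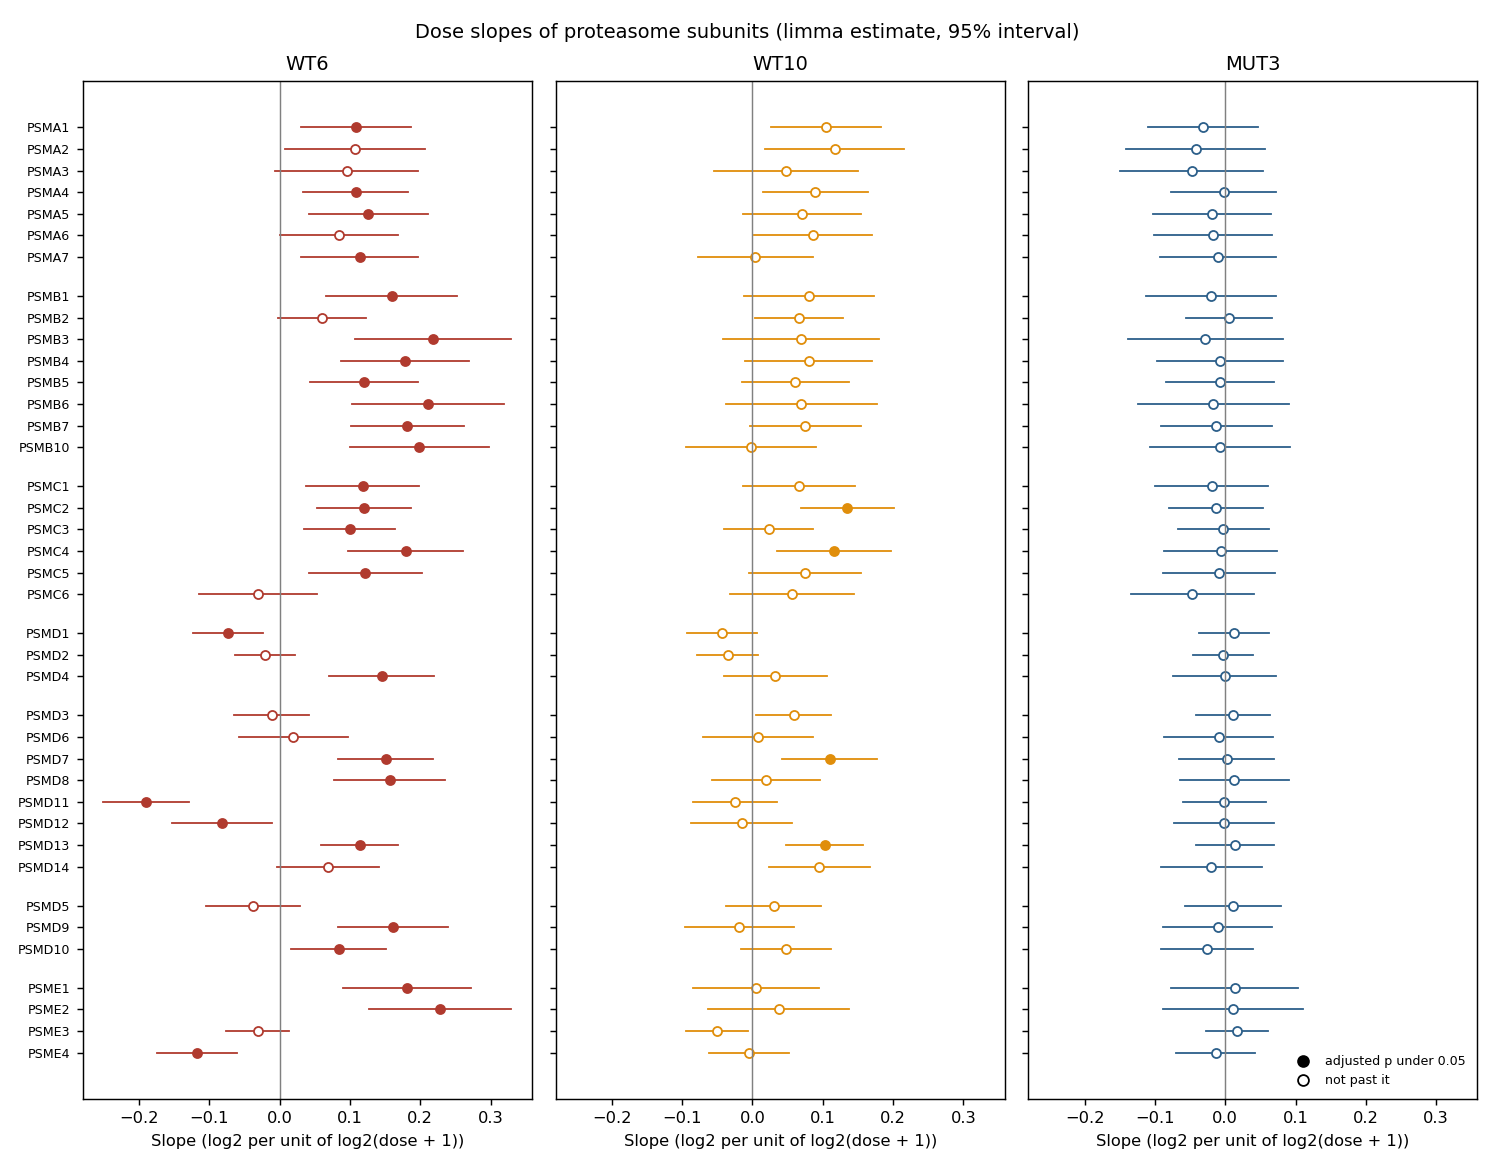
Dose slopes of the 39 tested members, ordered by role from the alpha ring (top) to the activators (bottom), in WT6, WT10 and MUT3 cells, with points for the limma estimate, lines for its 95% interval and filled points where the adjusted p was under 0.05. The x axis is log2 per unit of log2(dose + 1). Of the points 28 are filled in WT6, 4 in WT10 and 0 in MUT3, and PSMD11 has the lowest slope in WT6 cells.

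The slopes of wild type and mutant clones were then compared directly. The mean slope of WT6 and WT10 exceeded that of MUT3 for PSMC2, PSMC4, PSMD7, PSMB7, PSMA1 and PSMD13 and was lower for PSMD11, that is 6 and 1 of 39 members (15.4% and 2.56%) against 10.1% and 14.6% of genes. The median difference over the members was 0.10. With the length and GC trends removed, 4 members were higher and 4 lower, against 13.7% and 23% of genes, and the median was 0.0061. PSMC2, PSMC4 and PSMD11 kept their call there, and PSMD7, PSMB7, PSMA1 and PSMD13 lost it. The count of the main test depended on single libraries, in fits whose share of all genes called is not given here. It was 26 without the WT6 library labelled 5 ng/ml and 17 without WT6 at 25 ng/ml. It was 3 without WT6 at 1 ng/ml, 3 without WT10 at 1 ng/ml and 0 without WT10 at 25 ng/ml. Leaving out a MUT3 library gave 0 (untreated or 25 ng/ml), 2 (1 ng/ml), 3 (2.5 ng/ml) or 4 (5 ng/ml). Between WT10 and MUT3, the clones of 1 parental line, no slope differed by limma, while 8 members had an unadjusted p under 0.05 and 2.66% and 2.97% of genes were called higher and lower. DESeq2 called 1 member there and edgeR 0. Removal of the trends left 4 members higher and 2 lower, against 6.95% and 13.2% of genes. With the WT6 libraries out of the fit, 17 members were higher in WT10 and PSME3 was lower, against 10.5% and 12.8% of genes, and 10 of the 17 were 20S subunits. Counts of 12, 1 and 2 members came from leaving out the WT6 library labelled 5 ng/ml, WT6 at 25 ng/ml or untreated WT10, respectively. The slopes of WT6 and WT10 differed for PSMD9 and PSMB10, higher in WT6, and PSMD11, lower in WT6, while 7.28% and 7.09% of genes were called. The balance turned on removal of the trends, to 1 member higher and 8 lower in WT6, against 7.48% and 7.61% of genes. These 3 calls numbered 0 without WT6 at 25 ng/ml or untreated WT10, and 11 and 7 without the WT6 libraries labelled 5 and 2.5 ng/ml. They numbered 1 without WT6 at 1 ng/ml, WT10 at 1 or 5 ng/ml, or any MUT3 library but the one at 5 ng/ml. Because fits with 1 library left out are given without the share of all genes called, their counts may not be particular to the members.

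Among the alpha subunits, 4 of 7 tested members rose in WT6 cells and none passed the test in WT10 or MUT3 cells. PSMA1 (hg19 chr11:14526420-14665181, minus strand), a subunit of the outer ring, held 4169.99, 3987, 4423, 6410.3 and 5360.1 in WT6 cells, 3668, 3609.9, 3986, 4262 and 5001 in WT10 cells and 4726, 4952, 4693, 4823 and 4312 in MUT3 cells, always in the order of 0, 1, 2.5, 5 and 25 ng/ml. The highest counts of each wild type clone were those of the upper 2 doses, whereas all 5 MUT3 counts exceeded untreated wild type cells and the lowest of them was at 25 ng/ml. Its slope was 0.11 (SE 0.037, adjusted p = 0.0209) in WT6 cells, 0.10 (SE 0.037, adjusted p = 0.0584) in WT10 cells and −0.03 (SE 0.037, adjusted p = 1) in MUT3 cells. Its wild type slopes exceeded the MUT3 slope by 0.14 (SE 0.045, adjusted p = 0.0378) on average, a call lost in 9 of the 15 fits that each left out 1 library. Without the WT6 libraries its WT10 slope was 0.10 (adjusted p = 0.000259), and after removal of the trends the WT6 slope was −0.03. PSMA2, another alpha subunit, held 3305, 3365, 3422, 5799 and 4204 in WT6 cells, 2977, 3038, 3406, 3653 and 4264 in WT10 cells and 4189, 4468, 4122, 4164 and 3741 in MUT3 cells. It was lower in untreated WT10 than MUT3 cells, and its WT10 counts were higher at each dose, entering the MUT3 range at 25 ng/ml. The WT10 slope of PSMA2 was 0.12 (SE 0.046, adjusted p = 0.0874) and missed the threshold.

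The other alpha subunits shared the step of WT6 cells. PSMA3 held 2684, 2604, 2761, 4606 and 3246 in WT6 cells, 2434, 2588, 2836, 2822 and 2858 in WT10 cells and 2938, 2967, 2829.8, 2913 and 2515 in MUT3 cells, and PSMA6 held 3468, 3389, 3364, 5309 and 4126 in WT6 cells, 2662, 2917, 3067, 3239.7 and 3549 in WT10 cells and 3220.2, 3253, 3276, 3217 and 3059 in MUT3 cells. Neither passed the test in WT6 cells, where both counts were lower at 25 than at 5 ng/ml, with slopes of 0.10 (SE 0.048, adjusted p = 0.0987) and 0.08 (SE 0.04, adjusted p = 0.0808). PSMA4 held 2276, 2302, 2401, 3501 and 2995 in WT6 cells, 3566, 3511, 3822, 4247 and 4602 in WT10 cells and 2747, 2916, 2716, 2837 and 2767 in MUT3 cells. WT10 cells held the most of it at every dose, and its slope was 0.11 (SE 0.035, adjusted p = 0.016) in WT6 cells and 0.09 (SE 0.035, adjusted p = 0.084) in WT10 cells. PSMA5 held 4019.8, 3919, 3993, 6433 and 5441 in WT6 cells, 3998, 3888, 4185, 4399 and 4901 in WT10 cells and 4181, 4297, 4043, 4199 and 3961 in MUT3 cells. Its clones overlapped at the lower doses, and the slope was 0.13 (SE 0.04, adjusted p = 0.0137) in WT6 cells and 0.07 (SE 0.039, adjusted p = 0.228) in WT10 cells. PSMA7 held 10503, 10058, 9902, 15778 and 13704 in WT6 cells, 8546, 7961, 7871, 7815 and 8529.8 in WT10 cells and 8973, 8829.98, 8619, 8532 and 8680.3 in MUT3 cells. In WT10 cells the library at 25 ng/ml did not exceed the untreated one, and the slope was 0.0038 (SE 0.038, adjusted p = 0.96) there and 0.11 (SE 0.039, adjusted p = 0.0215) in WT6 cells. With the trends removed the WT6 slopes were 0.17 for PSMA4 and 0.17 for PSMA5, against −0.05 for PSMA3, −0.07 for PSMA6 and −0.04 for PSMA7, all past the threshold. The values of PSMA4 and PSMA5 rest on canonical transcripts that are longer than the median transcript of the gene.

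Of the 8 tested beta subunits 7 rose in WT6 cells, among them PSMB5, PSMB6 and PSMB7, which cut, and the inducible PSMB10, and none passed the test in WT10 or MUT3 cells. PSMB5 (hg19 chr14:23485752-23504439, minus strand) carries the chymotrypsin-like site and held 4389, 4479, 4244, 6559 and 5990.4 in WT6 cells, 4338, 4230.1, 4254, 4288 and 5258 in WT10 cells and 5015, 4886, 5034, 4798 and 4890.1 in MUT3 cells. The upper 2 WT6 libraries lay above the lower 3, and in WT10 cells the library at 25 ng/ml stood above the other 4. The slope was 0.12 (SE 0.036, adjusted p = 0.0111) in WT6 cells and 0.06 (SE 0.036, adjusted p = 0.251) in WT10 cells.

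PSMB6 (hg19 chr17:4699439-4701797, plus strand), with the caspase-like site, held 2403, 2413, 2352, 4542 and 4178 in WT6 cells, 4015, 3755, 3642, 3730.00 and 4952 in WT10 cells and 4363, 4422, 4285, 4189 and 4178 in MUT3 cells. In the 3 lower WT6 libraries it was the lowest of all 15, and at 25 ng/ml it reached the count of MUT3 at the same dose. Its slope was 0.21 (SE 0.051, adjusted p = 0.00286) in WT6 cells and 0.07 (SE 0.05, adjusted p = 0.364) in WT10 cells. PSMB7 (hg19 chr9:127115744-127177723, minus strand), with the trypsin-like site, held 4829.7, 4717, 4907, 7910.3 and 7823 in WT6 cells, 3911, 3782, 3934, 4059 and 4900.1 in WT10 cells and 4292, 4306, 4357, 4202 and 4144 in MUT3 cells. Here WT6 cells stood above both other clones at every dose. The PSMB7 slope was 0.18 (SE 0.038, adjusted p = 0.00102) in WT6 cells and 0.07 (SE 0.037, adjusted p = 0.17) in WT10 cells, and its mean wild type slope exceeded that of MUT3 by 0.14 (SE 0.045, adjusted p = 0.0361), a call lost in 8 of 15 fits with 1 library left out. In the fit without WT6 libraries the WT10 slopes of PSMB5, PSMB6 and PSMB7 were 0.06, 0.07 and 0.08 and all passed the threshold. With the trends removed the WT6 slopes of these genes were −0.04, 0.04 and 0.03, and only the fall of PSMB5 passed it.

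PSMB10 (hg19 chr16:67968409-67970767, minus strand) takes the place of PSMB7 in the immunoproteasome. It held 444, 445, 392, 728 and 756 in WT6 cells, 971, 985, 909.6, 956 and 969 in WT10 cells and 514, 515, 574, 515 and 506 in MUT3 cells. WT10 cells had the highest counts at every dose, with no step at 25 ng/ml, and did not overlap with WT6 or MUT3 cells. Its slope was 0.20 (SE 0.046, adjusted p = 0.00226) in WT6 cells and −0.0019 (SE 0.043, adjusted p = 0.982) in WT10 cells. The difference between these slopes was 0.20 (SE 0.063, adjusted p = 0.0478), lost in 12 of 15 fits with 1 library left out. After removal of the trends the WT6 slope was 0.02.

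Of the beta subunits without a cutting site, PSMB1, PSMB3 and PSMB4 rose in WT6 cells. PSMB1 held 5176, 5160.3, 5531, 9349 and 7702 in WT6 cells, 4163, 4118, 4299, 4728 and 5266 in WT10 cells and 4736, 4983, 4799, 4642 and 4542 in MUT3 cells, and PSMB3 held 3059, 3185, 2930.3, 6014 and 5476 in WT6 cells, 2995, 2844, 2954, 2922 and 3696 in WT10 cells and 3398, 3337, 3518, 3134 and 3139 in MUT3 cells. Both were highest in the upper 2 WT6 libraries and, within WT10 cells, at 25 ng/ml. Their WT6 slopes were 0.16 (SE 0.044, adjusted p = 0.00661) and 0.22 (SE 0.052, adjusted p = 0.0027). PSMB4 held 6269, 6577, 6309, 10919 and 10157 in WT6 cells, 6292, 6067, 6004, 6287 and 8042 in WT10 cells and 6287, 6435, 6572, 6259.99 and 6216 in MUT3 cells. The 3 clones overlapped up to 2.5 ng/ml, and the slope was 0.18 (SE 0.043, adjusted p = 0.00277) in WT6 cells and 0.08 (SE 0.042, adjusted p = 0.201) in WT10 cells. PSMB2 did not pass there and held 5473, 5617, 5606, 7404 and 6325 in WT6 cells, 5459, 5393, 5626, 5859 and 6665 in WT10 cells and 4462, 4747, 4639.6, 4649 and 4622 in MUT3 cells. MUT3 cells held the least of it at every dose, and its slope was 0.06 (SE 0.029, adjusted p = 0.0892) in WT6 cells and 0.07 (SE 0.029, adjusted p = 0.123) in WT10 cells. In the fit without WT6 libraries the WT10 slopes of PSMB1, PSMB2, PSMB3 and PSMB4 were 0.08, 0.07, 0.07 and 0.08, all past the threshold. Trend removal gave WT6 slopes of −0.00016, 0.12, 0.05 and 0.02 in the same order, of which only the rise of PSMB2 was called.

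**Figure D2:**
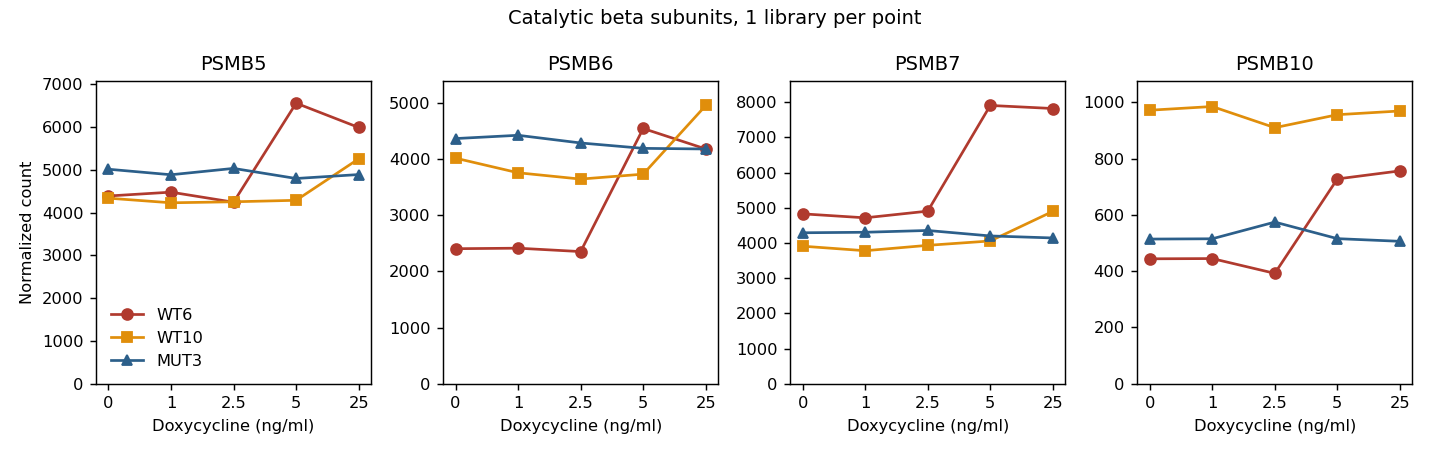
Normalized counts (y axis, starting at 0) of PSMB5, PSMB6 and PSMB7, the catalytic subunits of the constitutive core, and of the inducible PSMB10 against doxycycline dose (x axis, ng/ml, evenly spaced), 1 point per library. In WT6 cells all 4 genes stepped up at 5 ng/ml, whereas in WT10 cells PSMB5, PSMB6 and PSMB7 were highest at 25 ng/ml and PSMB10 stayed between 909.6 and 985.

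The ATPases of the 19S base rose in WT6 cells in 5 of 6 cases, and 2 of them rose in WT10 cells. PSMC2 (hg19 chr7:102969017-103010793, plus strand) held 2259, 2187, 2603, 3292 and 3092 in WT6 cells, 2403, 2278, 2597, 2825 and 3558 in WT10 cells and 2521, 2552, 2553, 2566 and 2416 in MUT3 cells. Both wild type clones were highest at the upper 2 doses and the 5 MUT3 libraries lay within 2416 to 2566. The slope was 0.12 (SE 0.031, adjusted p = 0.00453) in WT6 cells and 0.14 (SE 0.031, adjusted p = 0.00747) in WT10 cells, and their mean exceeded the slope of MUT3 by 0.14 (SE 0.038, adjusted p = 0.0166). With the trends removed the slopes were 0.11 and 0.09, both past the threshold. The annotated gene overlaps PMPCB on the same strand and DNAJC2 on the other. The study reports default HTSeq settings for the counting and does not name the strand setting.

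PSMC4 (hg19 chr19:40477072-40487671, plus strand) held 3857, 3815, 4058, 5620.1 and 6406 in WT6 cells, 3247, 2919, 3009, 2993 and 4603 in WT10 cells and 3462, 3354, 3373, 3186 and 3397 in MUT3 cells. In WT10 cells the library at 25 ng/ml stood far above the other 4, all of which lay below the untreated MUT3 library. Its slope was 0.18 (SE 0.038, adjusted p = 0.00125) in WT6 cells and 0.12 (SE 0.038, adjusted p = 0.0431) in WT10 cells, and the mean of both exceeded MUT3 by 0.15 (SE 0.046, adjusted p = 0.027). Without the WT10 library at 25 ng/ml the WT10 slope was −0.04. PSMC1 held 418, 439, 476, 674 and 577 in WT6 cells, 435, 499, 517, 525 and 555 in WT10 cells and 561, 507, 549, 512 and 516 in MUT3 cells. Its counts overlapped between clones, and the slope was 0.12 (SE 0.038, adjusted p = 0.0147) in WT6 cells and 0.07 (SE 0.038, adjusted p = 0.237) in WT10 cells. PSMC6 was the 1 ATPase that did not pass the test in WT6 cells and held 2041, 1956, 1992, 2688 and 1705 in WT6 cells, 1205, 1184, 1303, 1357 and 1412 in WT10 cells and 1598, 1554, 1512, 1573 and 1355 in MUT3 cells. It was high in the WT6 library labelled 5 ng/ml and low at 25 ng/ml, and WT6 and WT10 did not overlap. Trend removal gave PSMC6 a WT6 slope of −0.08, called as a fall.

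The ATPases PSMC3 and PSMC5 also rose in WT6 cells. PSMC3 held 7474, 7599.9, 7029, 9659.7 and 9828 in WT6 cells, 4831, 4449, 4504, 4384 and 5127 in WT10 cells and 6502, 6416, 6482, 6251 and 6466 in MUT3 cells. The order WT6, MUT3, WT10 held at every dose, and the slope was 0.10 (SE 0.031, adjusted p = 0.0123) in WT6 cells and 0.02 (SE 0.03, adjusted p = 0.637) in WT10 cells. PSMC5 held 6106, 6084, 5742, 8951 and 8342 in WT6 cells, 5687, 5330.5, 5431, 5571 and 7091 in WT10 cells and 5829, 5789, 5719.98, 5599 and 5689 in MUT3 cells. The clones lay close together up to 2.5 ng/ml, and the WT10 library at 25 ng/ml exceeded the 4 others of its clone. The WT6 slopes of both turned on removal of the trends, to −0.03 for PSMC3 and −0.01 for PSMC5, without a call. The slope of PSMC5 was 0.12 (SE 0.038, adjusted p = 0.0129) in WT6 cells and 0.07 (SE 0.037, adjusted p = 0.178) in WT10 cells, and 0.08 (adjusted p = 0.00749) in WT10 cells without the WT6 libraries.

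Of the other base subunits, PSMD4 rose and PSMD1 fell in WT6 cells, and PSMD2 did not pass the test. PSMD1, a scaffold subunit of the base, held 5129, 5066, 4807, 4628 and 4073 in WT6 cells, 2954, 3015, 3172, 3069.99 and 2575 in WT10 cells and 3609, 3820.1, 3779.7, 3989 and 3778 in MUT3 cells. Its levels kept the order WT6, MUT3, WT10 at every dose. It fell in WT6 cells with a slope of −0.07 (SE 0.023, adjusted p = 0.0143), and its WT10 slope was −0.04 (SE 0.023, adjusted p = 0.209). PSMD2, a scaffold for ubiquitin shuttle factors, held 18119, 18397, 18287, 17118 and 17259.9 in WT6 cells, 26332, 25376, 25441, 24528 and 23401 in WT10 cells and 21721, 21439, 21329, 21499.7 and 21362 in MUT3 cells. Here the order was WT10, MUT3, WT6 at every dose, and the slopes were −0.02 in WT6 and −0.04 in WT10 cells, neither past the threshold. Trend removal gave PSMD2 a WT6 slope of −0.03, called as a fall. PSMD4, a ubiquitin receptor, held 4908, 4841, 4955, 7492 and 7179 in WT6 cells, 3755, 3605, 3557, 3575 and 4141 in WT10 cells and 3627, 3586, 3483, 3503 and 3617 in MUT3 cells. The 2 upper WT6 libraries exceeded the 13 others, and the slope was 0.14 (SE 0.035, adjusted p = 0.00282) in WT6 and 0.03 (SE 0.034, adjusted p = 0.55) in WT10 cells. Trend removal left PSMD4 with a WT6 slope of 0.007, not called.

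Of the chaperones that assemble the base, PSMD9 and PSMD10 rose in WT6 cells, and PSMD5 did not pass the test. PSMD9 held 1806, 1843, 1824, 2933 and 2793 in WT6 cells, 2437, 2215, 2328, 2291 and 2232 in WT10 cells and 2515, 2497, 2567, 2398 and 2448 in MUT3 cells. The upper WT6 libraries exceeded all others, while the 10 WT10 and MUT3 libraries lay between 2215 and 2567. Its slope was 0.16 (SE 0.037, adjusted p = 0.00187) in WT6 cells and −0.02 (SE 0.037, adjusted p = 0.768) in WT10 cells, with a difference of 0.18 (SE 0.052, adjusted p = 0.0357), lost in 10 of 15 fits with 1 library left out. PSMD10, also called gankyrin, held 653, 603, 645, 822 and 795 in WT6 cells, 1048, 998, 1122, 1159 and 1183 in WT10 cells and 1048, 1121, 1163, 1077 and 989 in MUT3 cells. The 5 WT6 libraries lay below all 10 others. The PSMD10 slope was 0.08 (SE 0.032, adjusted p = 0.0341) in WT6 cells, and with the trends removed it was −0.03.

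In the lid, PSMD7 and PSMD13 rose in both wild type clones, and PSMD11 had the lowest WT6 slope of the 39 members. PSMD7 (hg19 chr16:74330712-74340186, plus strand), which pairs with the deubiquitinase PSMD14, held 2366, 2540.5, 2639, 3713 and 3659 in WT6 cells, 2944, 2814, 3123, 3618 and 3984 in WT10 cells and 2286, 2544, 2387, 2432 and 2372 in MUT3 cells. The upper 2 doses exceeded the lower 3 in both wild type clones, and MUT3 cells stayed between 2286 and 2544. It rose in WT6 cells with a slope of 0.15 (SE 0.032, adjusted p = 0.0011) and in WT10 cells with 0.11 (SE 0.032, adjusted p = 0.0239), and their mean exceeded the MUT3 slope by 0.13 (SE 0.039, adjusted p = 0.0278). All 3 calls passed the threshold, and the slopes with the trends removed were 0.04 and 0.07, also past it. The difference from MUT3 was then 0.04 (limma, adjusted p = 0.0934) and no longer called. PSMD13 (hg19 chr11:236966-252984, plus strand), a structural lid subunit, held 4708, 4759.8, 4753, 5912 and 6545 in WT6 cells, 4496, 4431, 4472, 4886 and 6159 in WT10 cells and 5627, 5989, 5834, 6051 and 5956 in MUT3 cells. Both untreated wild type clones lay below all MUT3 libraries, and both lay above all of these at 25 ng/ml. The slope was 0.11 (SE 0.026, adjusted p = 0.00195) in WT6 cells and 0.10 (SE 0.026, adjusted p = 0.012) in WT10 cells, and their mean exceeded MUT3 by 0.09 (SE 0.032, adjusted p = 0.042). With the trends removed the WT6 rise of PSMD13 was lost (−0.0025, adjusted p = 0.905), and the WT10 slope was 0.08 and still called.

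PSMD14, the deubiquitinase that cuts the chain from the substrate, held 2205, 2357, 2359, 3252 and 2631 in WT6 cells, 2597, 2795, 2977, 3262 and 3514 in WT10 cells and 3690.4, 4009.9, 3800.5, 3965 and 3522 in MUT3 cells. WT10 counts were higher at every dose and at 25 ng/ml stood just below the lowest MUT3 library. The slope was 0.10 (SE 0.034, adjusted p = 0.0599) in WT10 and 0.07 (SE 0.034, adjusted p = 0.0951) in WT6 cells. Trend removal gave 0.04 in WT10 cells, called as a rise, and −0.04 in WT6 cells, called as a fall. PSMD11 (hg19 chr17:30771397-30810337, plus strand), a lid subunit that contacts the core, held 3073, 2924, 2953, 2098 and 1748 in WT6 cells, 3143, 3259.8, 3323, 3283 and 2919.9 in WT10 cells and 3289, 3235, 3118, 3264 and 3248 in MUT3 cells. It was lower in the upper 2 WT6 libraries than in the 13 others, which lay between 2919.9 and 3323. The fall had a slope of −0.19 (SE 0.029, adjusted p = 0.000101) in WT6 cells and −0.03 (SE 0.028, adjusted p = 0.577) in WT10 cells. The slopes of the 2 clones differed by −0.16 (SE 0.04, adjusted p = 0.0228), and after removal of the trends the WT6 slope was −0.15 and still called. PSMD12, a structural lid subunit, held 2947, 2761, 2859, 3136 and 2159 in WT6 cells, 2197, 2199.9, 2429, 2487 and 2051 in WT10 cells and 2604, 2554, 2602, 2824 and 2529.9 in MUT3 cells. In all 3 clones it was highest at 5 ng/ml and lowest at 25 ng/ml. Its WT6 slope of −0.08 (SE 0.033, adjusted p = 0.0471) rested on the library at 25 ng/ml, without which it was 0.03.

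Of the remaining lid subunits PSMD8 rose in WT6 cells, and PSMD3 and PSMD6 did not pass the test there. PSMD8 held 6217, 6298, 5983, 9470.3 and 9512 in WT6 cells, 5297, 5040.2, 4931, 4785 and 5625 in WT10 cells and 5868, 5962, 5815, 5835 and 6156 in MUT3 cells. Its upper 2 WT6 libraries exceeded the 13 others, with slopes of 0.16 (SE 0.037, adjusted p = 0.00244) in WT6 and 0.02 (SE 0.036, adjusted p = 0.757) in WT10 cells. PSMD3 held 6272, 6435, 5981, 5771 and 6183 in WT6 cells, 6426, 6041, 5963, 6241 and 7620.03 in WT10 cells and 5456, 5530.4, 5418, 5381 and 5704 in MUT3 cells. It showed no step in WT6 cells and was highest in WT10 cells at 25 ng/ml, where the slope was 0.06 (SE 0.025, adjusted p = 0.112), and 0.06 (adjusted p = 0.024) without the WT6 libraries. PSMD6 held 2356, 2255, 2322, 3187 and 2317 in WT6 cells, 2255, 2195, 2347, 2432 and 2259 in WT10 cells and 2524, 2398, 2383, 2533 and 2388 in MUT3 cells. Apart from the WT6 library labelled 5 ng/ml all values lay between 2195 and 2533, with slopes of 0.02, 0.01 and −0.01 in WT6, WT10 and MUT3 cells. Trend removal gave WT6 slopes of −0.09 for PSMD3 and −0.11 for PSMD6, both called as falling. That of PSMD8 was then 0.03 and not called. PSMD5, the third base chaperone, held 1713, 1711, 1945, 1924 and 1489 in WT6 cells, 1349, 1511, 1547, 1626 and 1512 in WT10 cells and 1352, 1497, 1434, 1513 and 1431 in MUT3 cells. Its clones overlapped, and the slopes were −0.04, 0.03 and 0.01, none past the threshold.

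The activators split by kind. PSME1 and PSME2 form 1 ring that interferon is known to induce, and both rose in WT6 cells. PSME1 held 1974, 1999, 1807, 3256 and 3201 in WT6 cells, 2856, 2878, 2974, 2872 and 2915 in WT10 cells and 2531, 2762, 2788, 2619 and 2734 in MUT3 cells, and PSME2 held 1956, 1864, 1838, 3574 and 3549 in WT6 cells, 2570.4, 2528, 2571, 2634 and 2872 in WT10 cells and 2699, 2851, 2785, 2790.5 and 2847 in MUT3 cells. For both genes the 3 lower WT6 libraries were the lowest of the 15 and the upper 2 the highest. Their slopes were 0.18 (SE 0.043, adjusted p = 0.00242) and 0.23 (SE 0.047, adjusted p = 0.00102) in WT6 cells, and 0.0047 (SE 0.042, adjusted p = 0.954) and 0.04 (SE 0.047, adjusted p = 0.626) in WT10 cells. With the trends removed only PSME2 still rose (0.07). PSME3, which forms a ring of its own in the nucleus, held 9153, 9150.1, 9169, 9006 and 8287 in WT6 cells, 6208, 6071, 6139, 6034 and 5250.3 in WT10 cells and 7271, 7282, 7025, 7542 and 7601 in MUT3 cells. WT6 and WT10 each held the least of it at 25 ng/ml, the dose at which MUT3 cells held the most, with WT6, WT10 and MUT3 slopes of −0.03, −0.05 and 0.02 that did not pass the threshold. PSME4, the large single-chain activator, held 2614, 2523, 2686, 2057 and 1845 in WT6 cells, 2224, 2396, 2379.6, 2445 and 2215 in WT10 cells and 2486, 2493, 2463, 2517 and 2373 in MUT3 cells. The upper 2 WT6 libraries were the lowest of all 15. It fell in WT6 cells with a slope of −0.12 (SE 0.027, adjusted p = 0.00191), and its WT10 slope was −0.01 (SE 0.027, adjusted p = 0.918). Its transcript of 7250 nucleotides is the longest of the members, and with the trends removed the WT6 slope was −0.02.

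Untreated clones had similar summed 20S counts, from 59996 to 64039, but differed in single subunits. The fitted untreated level of 8 members was higher and of 8 lower in WT6 than in WT10 cells (20.5% each), against 30.8% and 28.8% of genes, with a median log2 difference of 0.08. After removal of the trends 23 were higher and 8 lower in WT6, against 36.4% and 33.7% of genes. The removal sets each library to the mean trend of its clone, which in WT6 includes the libraries labelled 5 and 25 ng/ml. It thereby moved the untreated WT6 level of short transcripts, as for PSMB5 from 4389 to 5215 normalized counts. The trend-removed counts of this comparison are therefore not level differences free of the trend. PSMB10 was lower in WT6, with a log2 difference of −1.25 (SE 0.17, adjusted p = 1.13e-05), as was PSMD10 with −0.73 (SE 0.11, adjusted p = 5.57e-05), while PSMC6 was higher by 0.85 (SE 0.15, adjusted p = 0.000157) and PSMD1 by 0.74 (SE 0.085, adjusted p = 2.48e-06). PSMB6 (−0.68), PSME1 (−0.65), PSMD2 (−0.52) and PSME2 (−0.50) were also lower, and PSME3 (0.56) and PSMD12 (0.41) higher, all past the threshold. These differences hold parental line, clone and any leak of the transgene together.

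Between WT10 and MUT3 the fitted untreated level differed for 9 members, 2 higher in WT10 and 7 lower (5.13% and 17.9%), against 14.3% and 13.9% of genes. When the trends were removed, 4 were higher and 16 lower, against 21.7% and 20.5% of genes. PSMB10 was higher in WT10 by 0.86 (SE 0.16, adjusted p = 0.00128) and PSMD2 by 0.28 (SE 0.073, adjusted p = 0.00923). Lower in WT10 were PSMA2 with a log2 difference of −0.59 (SE 0.17, adjusted p = 0.0172) and PSMD14 with −0.56 (SE 0.12, adjusted p = 0.00309), followed by PSMA1 with −0.48 (SE 0.13, adjusted p = 0.0147) and PSMD13 with −0.46 (SE 0.094, adjusted p = 0.00194). Of 39 members, 9 had a higher fitted level in WT10, with a median log2 difference of −0.17 against −0.01 for all genes. The 9 calls became 21 without the WT6 library labelled 5 ng/ml, and 5 without WT10 at 1 ng/ml, untreated MUT3 or MUT3 at 25 ng/ml. Here too the share of all genes called in these refits is not given.

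The other 34 genes of the pathway outside the rule, grouped as assembly factors, immunosubunits, 19S cofactors, shuttle factors, the p97 complex, regulators and ubiquitin genes, showed 13 rising (38.2%) and 9 falling (26.5%) in WT6 cells, against 29.2% and 28.3% of all genes. These pathway counts are as deposited, with the length trend of the upper WT6 libraries left in. In WT10 cells 3 rose (8.82%), against 10.2% of genes, and in MUT3 cells none by limma, with none at an unadjusted p under 0.05. Their wild type slopes exceeded MUT3 on average in 4 genes (11.8%) and fell short of it in 3 (8.82%), against 10.1% and 14.6% of all genes. The immunosubunits rose in both wild type clones. PSMB8, which replaces PSMB5, held 415, 455, 426, 732 and 993 in WT6 cells, 2146, 2356, 2378, 2514 and 3186 in WT10 cells and 2285, 2348, 2317, 2286 and 2459.7 in MUT3 cells. Its slope was 0.29 (SE 0.038, adjusted p = 3.36e-05) in WT6 and 0.12 (SE 0.033, adjusted p = 0.0195) in WT10 cells, above MUT3 by 0.19 (SE 0.041, adjusted p = 0.00631). PSMB9, which replaces PSMB6, held 125, 109, 123, 222 and 333 in WT6 cells, 634, 747, 735, 699 and 983 in WT10 cells and 813, 774, 818, 745 and 854 in MUT3 cells. WT6 cells held far less of both than the other clones at every dose, with untreated differences from WT10 of −2.49 and −2.68 on the log2 scale (adjusted p = 6.93e-10 and 1.21e-08). The PSMB9 slope was 0.37 (SE 0.053, adjusted p = 7.65e-05) in WT6 and 0.12 (SE 0.04, adjusted p = 0.047) in WT10 cells. In WT6 cells at 25 ng/ml PSMB8 and PSMB9 were 2.39 and 2.66 times untreated as deposited. Trend removal left them at 1.55 and 1.73 times.

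Among assembly factors, POMP, which matures the 20S core, held 2629, 2769, 2982, 6052 and 4359.8 in WT6 cells, 3023, 3049.6, 3431, 3819 and 4249 in WT10 cells and 2509.8, 2717, 2665, 2742 and 2430.4 in MUT3 cells. The counts of both wild type clones were highest at the upper 2 doses, but only the WT6 slope of 0.20 (SE 0.059, adjusted p = 0.0095) passed, and the WT10 slope was 0.12 (SE 0.058, adjusted p = 0.181). The chaperone PSMG2 and UFD1L, a partner of p97, had mean wild type slopes above MUT3 by 0.19 (SE 0.055, adjusted p = 0.0245) and 0.16 (SE 0.055, adjusted p = 0.0471). Lower than MUT3 were the mean slopes of KIAA0368, a scaffold between core and regulator, with a difference of −0.19 (SE 0.034, adjusted p = 0.00217), of the shuttle factor UBQLN2 with −0.13 (SE 0.03, adjusted p = 0.00686) and of UBA6, a ubiquitin-activating enzyme, with −0.23 (SE 0.059, adjusted p = 0.0133). At 25 ng/ml, trend removal took PSMG2 and UFD1L in WT6 cells from 1.76 and 1.60 to 1.21 and 1.24 times untreated. KIAA0368, UBQLN2 and UBA6 went from 0.446, 0.533 and 0.368 to 0.597, 0.622 and 0.54 times. ADRM1, the ubiquitin receptor of the base not covered by the rule, had slopes of 0.10 (SE 0.032, adjusted p = 0.0128) in WT6 and 0.02 (SE 0.031, adjusted p = 0.726) in WT10 cells. At 5 and 25 ng/ml ADRM1 was 1.31 and 1.35 times untreated in WT6 cells as deposited. Trend removal brought it below untreated, to 0.958 and 0.845 times. NFE2L1, the transcription factor of the pathway, held 10671, 10499, 9885, 6876 and 8099 in WT6 cells, 7933, 8063, 7499, 7887 and 8524 in WT10 cells and 6076, 6265, 6560.1, 6187 and 6999.98 in MUT3 cells. It was lower in the upper 2 WT6 libraries than in the 3 others, with slopes of −0.11 (SE 0.035, adjusted p = 0.0168) in WT6 and 0.02 (SE 0.035, adjusted p = 0.725) in WT10 cells. At 5 and 25 ng/ml NFE2L1 was 0.644 and 0.759 times untreated in WT6 cells as deposited. Trend removal left it at 0.833 and 0.879 times.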

How the data were processed

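RNA of 15 libraries from 3 clones was sequenced as poly(A)-selected paired-end reads. The authors aligned the reads with STAR to hg19 (GRCh37), counted them on genes with HTSeq 0.5.4 and divided by DESeq size factors, and the deposited values are this normalized signal per gene. The annotation is not given in the sources used here. For HTSeq the study reports default settings and does not name the strand setting. The 5 HTSeq tallies were left out of all totals and tests. Among them, reads on no feature made up 56.5% to 59.6% of the tallied reads. The 41 members and all lists were chosen with earlier results of these data known.

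Whole reads were recovered by dividing each deposited value by the worth of 1 read in its library (100% whole within 0.01), and 3 reads, the floor of detection, corresponded to a normalized count of 1.19 to 4.09. The floor covers counting error only. The main test was limma 3.58.1 (R 4.3.3) on log2(normalized count + 1) with mean-variance weights and, for each clone, 1 line over log2(dose + 1), with 9 residual degrees of freedom and 12644 genes with a mean of 10 or more in each clone. Calls had a Benjamini-Hochberg adjusted p under 0.05 over all genes. The p-values measure scatter around dose lines, not the spread between separate cultures. Lengths, GC content and hg19 positions came from GENCODE 44 lifted to hg19, matched by symbol for 19556 genes and by older symbol for 1935 (92.0% in all), and all 41 members matched. Promoters came from RefSeq on GRCh38.p14.

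Genes were named by a fixed rule: catalytic subunits and PSMB10, the 3 members with the lowest p in each direction of each comparison, the 2 largest differences in untreated level, 10 members chosen by role and, in the pathway lists, PSMB8, PSMB9, POMP, ADRM1, NFE2L1 and those called between wild type and mutant. The other detected members are given for completeness. Alternatives were edgeR 4.0.16 and DESeq2 1.42.0 on the recovered reads, TMM factors, other pseudocounts, no filter, no weights, other dose codings, libraries left out, single clones and removal of each library's trends with length and GC content by splines. Fits without the WT6 libraries labelled 5 and 25 ng/ml, or without all WT6 libraries, were added after the data were seen. Simulated counts for 12644 genes held 200 genes with a slope of 0.3. Of these, 92.5% to 94.5% were recovered for the WT6 slope and 82% to 84% for the difference between WT10 and MUT3. False calls made up 4.62% to 7.35% and 6.15% to 8.24% of the calls, respectively. The member slopes given here are smaller than 0.3, so this recovery says nothing about slopes of their size. A simulated length trend gave 2825 calls among 12131 genes in WT6, and 2 after its removal. This trend was built from the same lengths that the removal uses, so the check covers only trends of that form. PSMC3IP, which begins like a member, was left out.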

Additional observations from a re-analysis of the deposited data

Results flagged for a closer look

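For 7 members the dose slope differed between the wild type clones and MUT3 by a test of the difference itself (limma, adjusted over 12644 genes). The mean wild type slope was higher by 0.1411 for PSMC2 (adjusted p = 0.0166), 0.1542 for PSMC4 (adjusted p = 0.027) and 0.1285 for PSMD7 (adjusted p = 0.0278). It was also higher by 0.1411 for PSMB7 (adjusted p = 0.0361), 0.1383 for PSMA1 (adjusted p = 0.0378) and 0.09435 for PSMD13 (adjusted p = 0.042), and the difference was −0.1063 for PSMD11 (adjusted p = 0.0369). Of these, PSMC2, PSMC4 and PSMD7 kept the call in 12, 12 and 11 of the 15 fits with 1 library left out, PSMB7 in 7, PSMA1 and PSMD11 in 6 and PSMD13 in 5. With the length and GC trends removed PSMC2, PSMC4 and PSMD11 kept the call, and PSMD7, PSMB7, PSMA1 and PSMD13 lost it. Between WT10 and MUT3 alone no member was called by limma in the main fit.

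For 3 members the slopes of the 2 wild type clones differed from each other by the same test. The WT6 slope minus the WT10 slope was −0.1646 for PSMD11 (adjusted p = 0.0228), 0.1801 for PSMD9 (adjusted p = 0.0357) and 0.2005 for PSMB10 (adjusted p = 0.0478). The call of PSMD11 remained in 13 of 15 fits with 1 library left out, that of PSMD9 in 5 and that of PSMB10 in 3.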

How the results depend on the processing

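Over the 8 counts of called members, edgeR and pseudocounts of 0.5 and 8 left every count within 1.5 times the reported one. For most of the fits below, the share of all genes called is not given, so a changed count may not be particular to the members. The 28 WT6 calls became 9 with each clone fitted alone, and 0 with the RBM47 count in place of dose or without the WT6 libraries labelled 5 and 25 ng/ml. The 4 WT10 calls became 0 with the RBM47 count or without the 25 ng/ml libraries, 15 with the clone alone, 14 with length and GC trends removed, 24 without WT6 at 5 and 25 ng/ml and 23 without all WT6 libraries. The 7 differences between wild type and MUT3 became 12 with DESeq2, 3 without a filter, without weights or without WT6 at 5 and 25 ng/ml, 1 with linear dose and 0 with the RBM47 count or without 25 ng/ml. The 3 differences between WT6 and WT10 became 6 with DESeq2, 1 without weights, 9 (1 higher, 8 lower) with trends removed and 0 with linear dose, the RBM47 count, without 25 ng/ml or without WT6 at 5 and 25 ng/ml. The 0 differences between WT10 and MUT3 became 1 with DESeq2 or TMM, 6 with trends removed, 19 without WT6 at 5 and 25 ng/ml and 18 without all WT6 libraries. The 16 level differences between WT6 and WT10 became 31 (23 higher, 8 lower) with trends removed, which itself moves the untreated WT6 levels. They became 26 without WT6 at 5 and 25 ng/ml. The 9 between WT10 and MUT3 became 20 with trends removed, 24 without WT6 at 5 and 25 ng/ml and 23 without all WT6 libraries. Leaving out 1 library gave 24 to 34 calls for the WT6 slope, 0 to 20 for WT10, 0 for MUT3, 0 to 26 for wild type against MUT3, 0 to 11 for WT6 against WT10, 0 to 12 for WT10 against MUT3, 11 to 24 and 5 to 21 for the levels. Of the 28 members called in WT6, 8 turned direction with trends removed and 13 without WT6 at 5 and 25 ng/ml. With trends removed the WT6 slopes were −0.045 for PSMA7, −0.026 for PSMC3, −0.015 for PSMC5, −0.00016 for PSMB1, −0.036 for PSMB5, −0.0025 for PSMD13, −0.033 for PSMD10 and −0.029 for PSMA1. Without WT6 at 5 and 25 ng/ml PSMA5, PSMA7, PSMB3, PSMC3, PSMC5 and PSMD8 turned below 0, and the slopes of the others were −0.025 for PSMB5, −0.016 for PSMB6, −0.093 for PSMB10, −0.051 for PSME2, −0.015 for PSMD10, −0.067 for PSME1 and 0.019 for PSME4, and PSMB10 differed between WT6 and WT10 by −0.091. The WT6 slope of PSMD12 was 0.034 without 25 ng/ml in all clones or in WT6 alone, and the WT10 slope of PSMC4 was −0.039 in the matching fits. Over all fits with 1 library left out they ran from −0.104 to 0.034 and from −0.039 to 0.185. The cause was not tested for any of these changes. Over the 54 called slopes and levels of the members named by rule, 1179 alternative values kept direction and call, 277 lost the call and 16 turned. With 1 library per clone and dose, no value has a replicate of its own.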
